A study of Mus musculus with 14 samples.

Results

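The 9 genes followed here encode RNA-binding proteins of neurons. They were measured through the Atoh1 lineage of the mouse hindbrain: Elavl2, Elavl3 and Elavl4, Nova1 and Nova2, Rbfox1, Rbfox2 and Rbfox3, and Celf4. They were taken by name from the feature tables and are 9 of 31054 genes counted in each of 14 single-cell RNA-seq libraries. Control cells came from Atoh1 Cre/+; Rosa lsl-tdTomato/+ mice, and mutant cells from Atoh1 Cre/S193A; Rosa lsl-tdTomato/+ mice, named Atoh1S193A/- here, all on C57BL/6J. The Cre allele leaves no working Atoh1, so the controls also carried a single working copy, and Cre marked cells that had switched Atoh1 on, whatever they became later. Hindbrain was taken at E14.5 and E18.5 (embryonic days) from 3 control and 3 Atoh1S193A/- embryos at each age, 1 embryo per library, each mutant with a littermate control. The pontine nuclei (PN) of control pups at P5 (a postnatal day) gave 2 libraries, each pooled from 11 to 13 pups. TdTomato-positive cells without the dead-cell dye DAPI were sorted in every case.

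The Elavl genes encode Hu proteins, which bind U-rich and AU-rich stretches of RNA, stabilise messages and steer splicing, and are used across neurobiology as early signs of a neuronal fate. Nova proteins bind YCAY elements, and Rbfox proteins bind GCAUG elements next to alternative exons. Rbfox3 is the antigen known as NeuN, a stain for mature neurons, and Celf4 acts on messages of synaptic and excitability genes. PN neurons arise from the caudal rhombic lip, migrate to the ventral hindbrain and send mossy fibres to the cerebellum. Atoh1, a basic helix-loop-helix factor, is needed in the lip for these neurons and for cerebellar granule neurons.

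Counts of unique molecular identifiers (UMIs) were read from the 3′ ends of transcripts, so they give the amount of each message and say nothing of which exons it held. The libraries held 108239001 to 236964126 UMIs in 150188 barcodes, of which 80250 cells were kept. Any 2 libraries shared 13 to 67 barcodes, at most 0.624% of the smaller one. Atoh1 itself was at 55.0 to 137 CPM (counts scaled to a common library total) in E14.5 controls and 86.2 to 144 CPM in E14.5 mutants. S193A changes 1 amino acid, so 3′ counts do not check the genotype. Cells were clustered within each age without the 9 genes, and clusters were named from marker lists. PN-like clusters carried Hoxb2 to Hoxb5, judged by their mean, with Pax6 and with Lhx2 under a limit. They fell into progenitor-like, Atoh1-high intermediate progenitor-like, newborn or migrating neuron-like and differentiated neuron-like clusters, called progenitor, intermediate, newborn and differentiated here. Barhl1 was required of PN-like clusters in every state but the progenitor. Progenitor was the state left to a cluster with Nhlh1, Mapt and Atoh1 all under their limits. No marker of dividing cells had to be high. Clusters with Pax6 and Barhl1 but without these Hox genes are called Hox-negative, a name for the marker pattern and not for 1 cell type. Levels are the UMIs of a gene summed over the cells of a class in 1 library, in CPM. UMI counts of different genes were not ranked against each other. In summed cells, fewer cells that express a gene and less RNA per cell cannot be told apart.

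On GRCm38 with GENCODE M21, the minus strand holds Elavl2 (chromosome 4, 91250763 to 91400785), Elavl4 (chromosome 4, 110203722 to 110351909), Elavl3 (chromosome 9, 22015005 to 22052023), Nova1 (chromosome 12, 46694517 to 46818929), Rbfox2 (chromosome 15, 77078990 to 77307004) and Rbfox3 (chromosome 11, 118489762 to 118911597). The plus strand holds Nova2 (chromosome 7, 18925888 to 18965319) and Rbfox1 (chromosome 16, 5885355 to 7411526). A counted gene on the same strand, Gm49318, overlaps the 5′ part of Elavl3 but not its 3′ end, where reads fall. Since Atoh1 binds E-boxes, written CANNTG and the same on both strands, the 250 bases before the starts of these genes were searched for that motif. RefSeq promoters on GRCm38.p6 were found for 7 of the 9 genes. The windows of Elavl3 and of 2 starts of Elavl4, the Hu genes with the widest range across PN-like states, are shown with E-boxes in capitals.
Elavl3, chr9:22052024-22052273, minus strand: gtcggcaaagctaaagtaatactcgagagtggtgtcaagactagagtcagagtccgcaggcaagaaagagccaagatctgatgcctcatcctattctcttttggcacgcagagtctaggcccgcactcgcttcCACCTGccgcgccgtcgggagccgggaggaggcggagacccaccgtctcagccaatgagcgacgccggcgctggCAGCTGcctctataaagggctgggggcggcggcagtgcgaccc
Elavl4, chr4:110351912-110352161, minus strand: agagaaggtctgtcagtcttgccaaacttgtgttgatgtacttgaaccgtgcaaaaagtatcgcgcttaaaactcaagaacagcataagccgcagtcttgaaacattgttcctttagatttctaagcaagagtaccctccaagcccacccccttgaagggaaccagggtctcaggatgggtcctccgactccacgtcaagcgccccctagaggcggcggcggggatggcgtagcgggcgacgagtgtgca
Elavl4, chr4:110287528-110287777, minus strand: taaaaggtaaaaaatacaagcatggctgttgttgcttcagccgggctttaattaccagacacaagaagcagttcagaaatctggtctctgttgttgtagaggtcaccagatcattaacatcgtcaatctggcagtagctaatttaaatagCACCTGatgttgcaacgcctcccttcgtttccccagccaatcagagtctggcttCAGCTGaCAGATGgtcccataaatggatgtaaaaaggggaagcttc

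The Elavl3 window held 2 matches, the first Elavl4 window 0 and the other 3. Among all 32851 promoters of this length, 66.2% held at least 1 match, 31.8% at least 2 and 12.2% at least 3. A start with a match was found for Elavl2 (3 of 6 starts), Elavl4 (3 of 4), Nova1 (1 of 1), Rbfox1 (1 of 2) and Rbfox3 (1 of 1), and none for the single Nova2 start. Such matches describe the letters and not a bound site.

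In control cells of E14.5, the 3 Hu genes were low in PN-like progenitors and high by the intermediate state, in which Atoh1 is still high. Elavl3, a pan-neuronal Hu gene, stood at 32.7, 83.6 and 45.4 CPM in progenitors of control libraries 1, 2 and 3. It was at 574, 562 and 558 CPM in intermediate cells, a ratio of means of 10.5. It peaked in newborn neurons at 776, 879 and 788 CPM and was at 619, 704 and 616 CPM in differentiated neurons. The libraries did not overlap at any of these steps, and the order was the same in each.

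Elavl4, which encodes HuD, had the largest ratio at the first step, 11.9 between means. Its progenitor levels were 27.8, 47.1 and 26.4 CPM and its intermediate levels 483, 325 and 394 CPM. Newborn neurons held 688, 562 and 572 CPM, and differentiated neurons 383, 298 and 322 CPM. Differentiated neurons were thus below newborn ones in 3 of 3 libraries, at 0.550 of the mean. Elavl2, which encodes HuB, was already at 76.2, 101 and 90.3 CPM in progenitors and rose in level to 428, 345 and 417 CPM in intermediate cells. Newborn neurons held 537, 529 and 533 CPM of Elavl2 and differentiated ones 438, 543 and 413 CPM. For Elavl2 the last 2 states overlapped.

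Celf4 came on 1 state later than the Hu genes. Its level was 17.1, 31.3 and 39.9 CPM in progenitors and 32.4, 40.0 and 36.2 CPM in intermediate cells, which overlapped. Newborn neurons then held 471, 419 and 481 CPM, a ratio of means of 12.6 over the intermediate state. Differentiated neurons, at 467, 675 and 504 CPM, overlapped newborn ones.

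**Figure D1:**
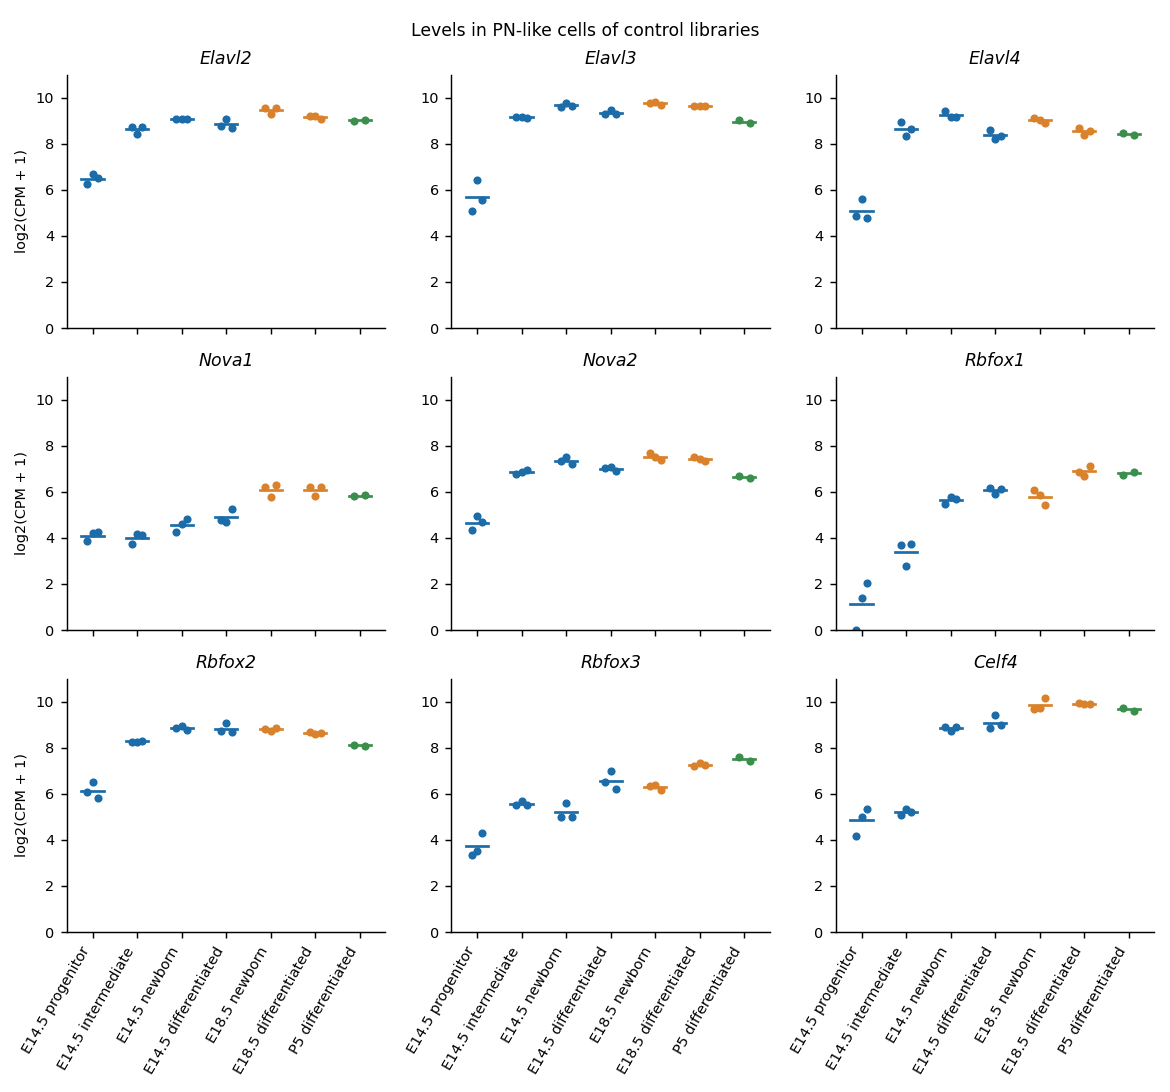
Level of each of the 9 genes, as log2(CPM + 1), in PN-like states of control libraries at E14.5 (blue), E18.5 (orange) and P5 (green), with a point for each library and a short line at the mean of the log2 values. Elavl3 and Elavl4 climb between progenitor and intermediate cells, whereas Celf4 stays low there (32.4 to 40.0 CPM) and climbs in newborn neurons (419 to 481 CPM).

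Rbfox2, which is also expressed outside the nervous system, was at 65.5, 89.7 and 54.6 CPM in progenitors, 306, 301 and 316 CPM in intermediate cells and 455, 490.0 and 434 CPM in newborn neurons. Differentiated neurons were close to newborn ones, with a ratio of 0.995. Rbfox1, the gene with a role in excitability, was nearly silent in progenitors at 0, 1.62 and 3.07 CPM. It reached 11.8, 5.89 and 12.3 CPM in intermediate cells, 43.1, 53.4 and 50.8 CPM in newborn and 71.5, 59.6 and 68.7 CPM in differentiated neurons. Rbfox1 thus stood higher at every step, without overlap. The NeuN gene Rbfox3 did not follow that course: 9.25, 10.6 and 18.4 CPM in progenitors, 44.8, 50.1 and 45.1 CPM in intermediate cells, then 31.2, 47.9 and 31.1 CPM in newborn neurons. Only in differentiated neurons did it stand above all earlier PN-like states, at 90.6, 124 and 73.9 CPM, 2.62 times the newborn mean.

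The Nova genes, splicing regulators of synaptic proteins, differed from each other. Nova2 was at 19.2, 30.0 and 24.6 CPM in progenitors, 108, 114 and 122 CPM in intermediate cells, 159, 179 and 145 CPM in newborn and 129, 132 and 119 CPM in differentiated neurons. Nova1 showed no step at the intermediate state, with 13.5, 17.5 and 17.8 CPM in progenitors against 12.2, 16.8 and 16.4 CPM. It was at 18.1, 23.0 and 27.2 CPM in newborn and 26.3, 24.8 and 37.4 CPM in differentiated neurons, which overlapped. These levels across states describe the clusters and were not tested. Median UMIs per cell were 20703 in progenitors, 17054 in intermediate cells, 19457 in newborn and 19759 in differentiated neurons. These medians are over control and mutant cells together. Control library 2 held only 33 PN-like differentiated cells.

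Across the other classes, the highest level of a gene was not always in the PN lineage. Elavl3 at E18.5 was highest in Hox-negative newborn neurons, at 1088, 1095 and 1053 CPM, above the next class without overlap, and lowest in glia-like cells at 24.8, 19.8 and 36.0 CPM. At E14.5 its highest class was PN-like newborn neurons, which overlapped Hox-negative newborn neurons at 685, 856 and 769 CPM. Elavl4 at E14.5 was highest in newborn neurons with Hox genes outside the PN class, and these overlapped PN-like newborn neurons. Its level in Hox-negative newborn neurons was 323, 351 and 278 CPM, below all 3 PN-like values.

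Celf4 differed more between lineages. Hox-negative newborn neurons held 151, 133 and 168 CPM at E14.5, below the 419 to 481 CPM of PN-like newborn neurons. At E18.5 the differentiated Hox-positive neurons outside the PN class held 1322, 1645 and 1453 CPM, above every other class, while Hox-negative differentiated neurons held 342, 373 and 377 CPM. At P5 unipolar brush cell-like cells held 1941 and 1566 CPM of Celf4, next to 835 and 779.9 CPM in PN-like neurons. The Celf4 levels of PN-like newborn neurons at E14.5 were thus above those of Hox-negative differentiated neurons at E18.5.

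Rbfox1 and Rbfox3 differed in the order of the differentiated classes at E18.5. Rbfox1 was highest in differentiated Hox-positive neurons outside the PN class, at 161, 188 and 205 CPM, with PN-like differentiated neurons next at 116, 102 and 137 CPM. Hox-negative differentiated neurons held 35.8, 45.4 and 44.8 CPM of Rbfox1. Rbfox3 was instead highest in that last class, at 208, 211 and 209 CPM, and stood at 79.4, 96.2 and 87.0 CPM in the Hox-positive neurons outside the PN class. At P5 unipolar brush cell-like cells held 6.68 and 2.23 CPM of Rbfox1, against 106 and 115 CPM in PN-like and 107 and 112 CPM in inhibitory neuron-like cells, and the last 2 classes overlapped. Rbfox3 was lower in unipolar brush cell-like than in PN-like cells of P5 as well, at 89.7 and 81.0 against 194 and 170.1 CPM.

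Nova1 at E14.5 was highest in inhibitory neuron-like cells, at 113, 194 and 134 CPM, with overlap to the next class. At E18.5 it was highest in differentiated Hox-positive neurons outside the PN class, at 115, 111 and 137 CPM, without overlap. For Nova2 and Rbfox2 at E18.5 each of the 3 leading classes overlapped the next in order, except that the third class of Rbfox2, PN-like newborn neurons, stood above the fourth, PN-like differentiated neurons. Unipolar brush cell-like cells led both, with 235, 222 and 195 CPM of Nova2 and 501, 445 and 439.8 CPM of Rbfox2.

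**Figure D2:**
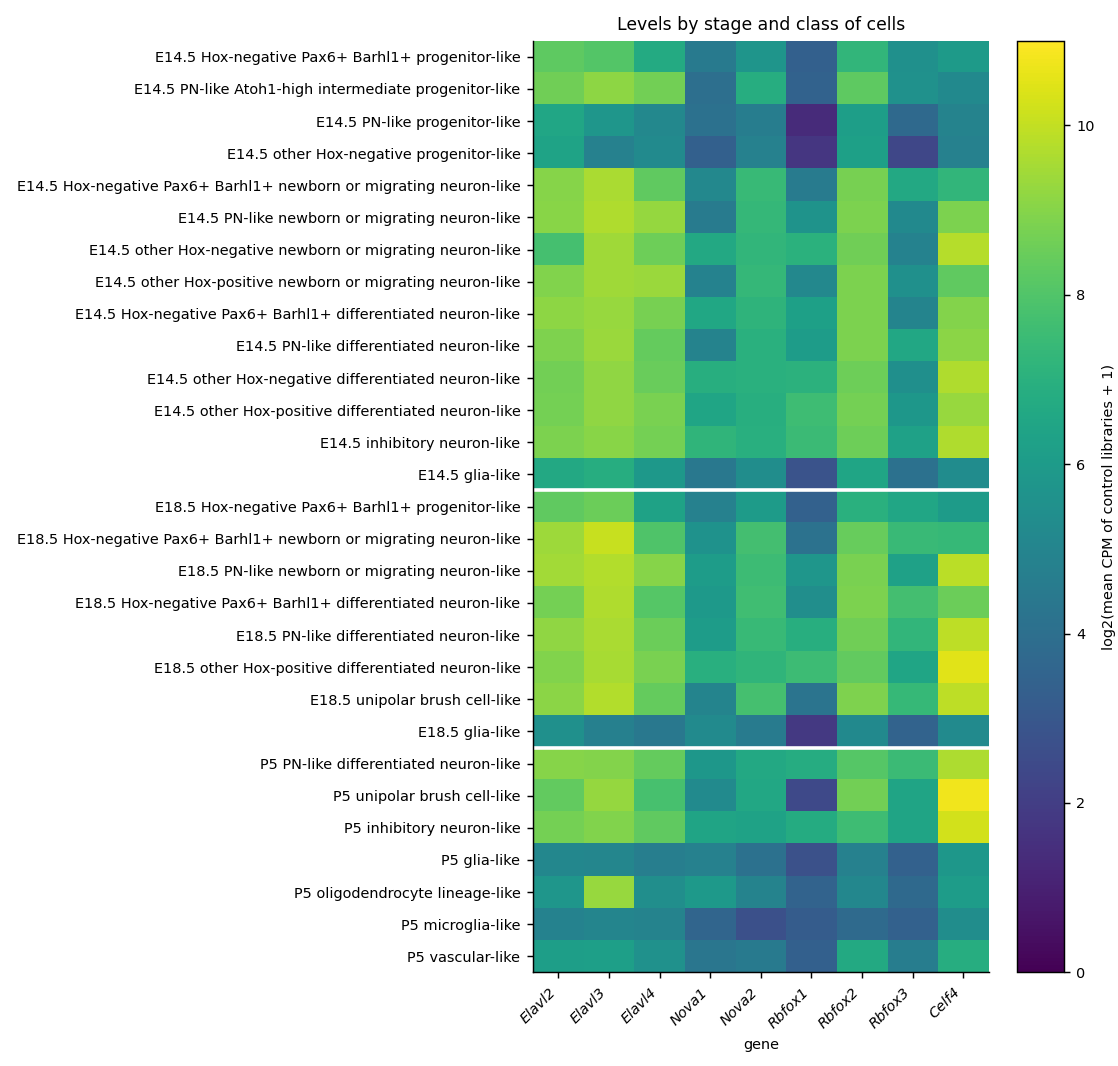
Level of the 9 genes (columns) in each named class at E14.5, E18.5 and P5 (rows, with white lines between ages), coloured by log2 of the mean CPM of control libraries + 1. Glia-like and microglia-like cells are at the low end for most genes, and Elavl3 in oligodendrocyte lineage-like cells of P5 (610.2 to 632 CPM) departs from the other 2 Hu genes.

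Over 85 profiles of clusters in control libraries, log2(CPM + 1) of the 9 genes was correlated with r of 0.40 to 0.93 and a median of 0.69 over 36 pairs. Nova2 and Rbfox2 were the closest pair. Among 7097 genes with a mean of at least 20 CPM, the gene most like Elavl2 was Smpd3 (r = 0.91), the gene most like Elavl3 was Rundc3a (0.92), and the gene most like both Elavl4 (0.94) and Rbfox2 (0.95) was Parp6. Nova1 had the weakest best match, Dpf1 at 0.82. Rbfox1 was most like Gpr22 (0.91), Rbfox3 like Unc13a (0.89) and Celf4 like its relative Celf5 (0.92). These profiles share libraries and depth, and the values are descriptions.

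The second question was how the genes changed with age within classes of the same name in control embryos. E18.5 was compared with E14.5 in 7 classes that had at least 10 cells in every library, by edgeR quasi-likelihood tests on summed UMIs with Benjamini-Hochberg adjustment over all genes. A call needed an adjusted p under 0.05 and a log2 change over 0.25 in size. The file headers of E14.5 control libraries 1 and 2 name an earlier Cell Ranger version than all others, and its part in the changes was not tested. Of 62 values for the 9 genes, 33 were called, beside 39.7% of the 70099 values of all genes in the same fits. Rbfox3 was called in 6 of 7 classes, each time higher at E18.5, while Elavl4 and Rbfox2 were called in 5 classes each, every time lower. For Elavl4 and for Rbfox2, 4 of these 5 calls were lost under at least 1 alternative, and for Rbfox3 1 of 6 was.

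In PN-like differentiated neurons 6 of 9 genes were called, where 58.2% of 10117 genes were. Celf4 moved from 467, 675 and 504 CPM at E14.5 to 973, 962 and 957 CPM at E18.5, without overlap, a log2 change of 0.71 (SE 0.13, adjusted p = 0.000595 by edgeR). Nova1 moved from 26.3, 24.8 and 37.4 to 73.3, 55.0 and 73.1 CPM, by 0.96 (SE 0.16). Every E18.5 library was above every E14.5 library for both genes. Rbfox1 rose by 0.68 (SE 0.11), Rbfox3 by 0.68 (SE 0.13) and Nova2 by 0.33 (SE 0.078), all without overlap. Rbfox2 was lower, from 419.9, 538 and 415 to 406, 387 and 395 CPM (log2 -0.31, SE 0.11). The 3 Hu genes were not called in this class. When doublets were kept, the calls for Nova1 (0.32), Rbfox1 (0.17) and Nova2 (0.21) were lost. The Nova2 call was lost too with a mitochondrial limit of 10% (0.19), and the Rbfox2 call was lost in 4 fits that left out a library.

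In PN-like newborn neurons 5 of 9 were called, against 32.6% of all genes. Nova1 rose by 1.46 (SE 0.18), from 18.1, 23.0 and 27.2 to 72.3, 53.1 and 76.3 CPM. Celf4 rose by 0.94 (SE 0.14) and Rbfox3 by 0.97 (SE 0.18), both without overlap. Elavl2 rose by 0.32 (SE 0.096) and Elavl4 fell by 0.31 on the log2 scale (SE 0.097). The Elavl2 call was lost in 3 fits that left out a library and with no filter on low values. The call for Elavl4 was lost in 4 fits that left out a library, at a mitochondrial limit of 10% (-0.20) and at a clustering resolution of 2 (-0.15), and its sign turned to 0.079 when doublets were kept. The Nova1, Celf4 and Rbfox3 calls in newborn neurons, and the Celf4 and Rbfox3 calls in differentiated ones, were kept under every alternative that was run. Of all 33 calls, 14 were so kept, and 12 of the other 19 were lost when a library was left out.

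**Figure D3:**
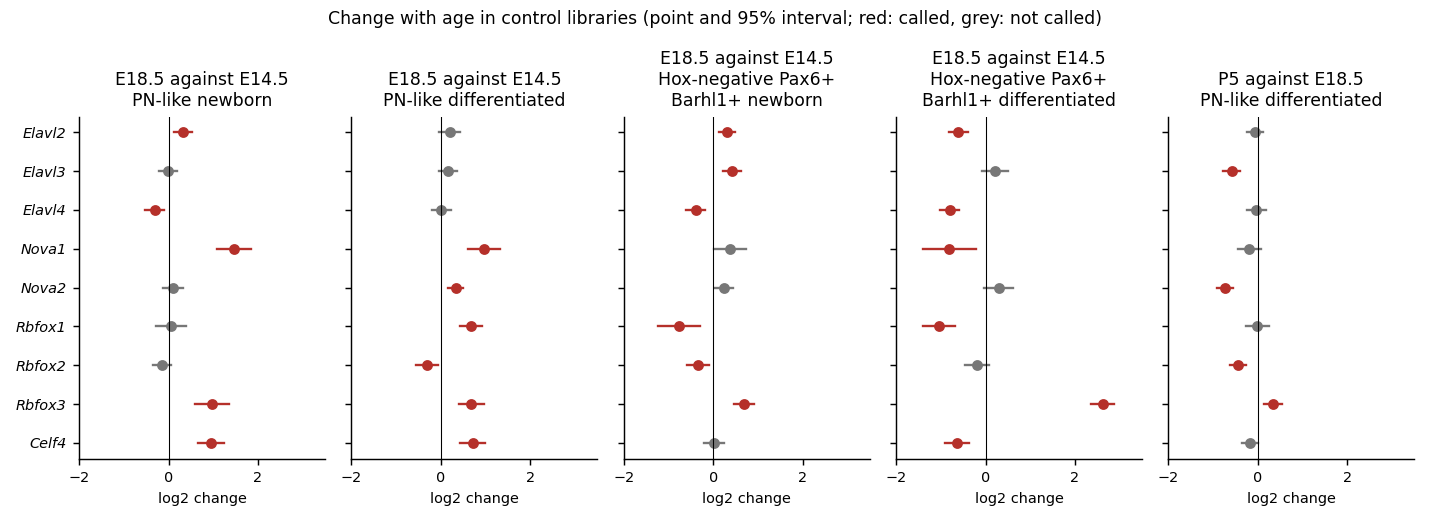
Log2 change of the 9 genes in control libraries, as edgeR estimates with 95% intervals, from E14.5 to E18.5 in newborn and differentiated neurons of the PN-like and the Hox-negative Pax6+ Barhl1+ classes, and from E18.5 to P5 in PN-like differentiated neurons (rightmost). Red marks called changes and grey those not called. Rbfox3 lies at 2.62 in Hox-negative differentiated neurons and Nova1 at 1.46 in PN-like newborn neurons.

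In Hox-negative differentiated neurons 6 of 9 genes were called, against 48.3% of all genes. Rbfox3 rose from 30.5, 34.0 and 25.8 CPM to 208, 211 and 209 CPM, a log2 change of 2.62 (SE 0.11, adjusted p = 2.24e-06 by edgeR), the largest of the 62 values in size. The other 5 calls were lower at E18.5: Elavl2 by -0.60, Elavl4 by -0.79, Nova1 by -0.81, Rbfox1 by -1.05 and Celf4 by -0.64. The Nova1 call was lost in 3 fits that left out a library and at a clustering resolution of 2. Celf4 and Rbfox1 thus had lower values here and higher ones in PN-like differentiated neurons at the later age, a difference that was not tested. The 2 ages were represented by unlike clusters, since the E14.5 class was a single cluster led by Calb2, Nefl and Lmx1a, while the E18.5 class held 4 clusters led by other genes, among them Cplx2, Nr2f2, Sp5 and Syt4. Calb2 and Lmx1a are known from unipolar brush cells, which had a class of their own at E18.5. The part of that difference in these changes was not tested.

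Hox-negative newborn neurons had 6 of 9 calls, against 41.8% of all genes. Elavl3 rose from 685, 856 and 769 to 1088, 1095 and 1053 CPM (log2 0.42, SE 0.097), Elavl2 rose by 0.31 and Rbfox3 by 0.69, whereas Elavl4 (-0.39), Rbfox1 (-0.77) and Rbfox2 (-0.34) fell. The Elavl2 value turned to -0.17 when doublets were kept. The calls for Elavl3 (0.13), Elavl4 (-0.23) and Rbfox1 (-0.18) were then lost too. At a mitochondrial limit of 10% the calls for Elavl3 (0.31), Elavl2 (0.089) and Elavl4 (-0.11) were lost, and at a clustering resolution of 2 those for Elavl2 (0.24) and Elavl4 (-0.11). The Rbfox1 call was also lost in 2 fits that left out a library, and the Rbfox2 call was lost under 7 of 12 alternatives, 5 of them fits that left out a library. In Hox-negative progenitors Rbfox3 rose by 0.94, and Elavl4 (-0.43) and Rbfox2 (-0.29) fell, 3 of 9 calls against 41.1% of genes. This class was 1 cluster at E14.5 and 11 clusters at E18.5, and the part of that difference was not tested. In controls Rbfox3 had a UMI in 57.2% of its cells at E14.5 and 68.9% at E18.5. The Elavl4 call was lost in 3 and the Rbfox2 call in 5 fits that left out a library, and the latter also at a mitochondrial limit of 10%. In differentiated Hox-positive neurons outside the PN class, Celf4 rose by 1.05 and Rbfox3 by 0.46 while Rbfox2 fell by 0.54, again 3 of 9, against 44% of genes. The Rbfox3 call there was lost in 4 fits that left out a library and at a clustering resolution of 2. Its log2 change lay between 0.34 and 0.63 over the alternatives. Glia-like cells had 4 of 8 calls, against 11% of genes, all lower at E18.5: Elavl3 by -2.07, Elavl4 by -1.46, Rbfox2 by -1.35 and Elavl2 by -1.33. When doublets were kept, the 3 Hu genes turned to 0.97, 0.60 and 0.60 in the order Elavl3, Elavl4 and Elavl2, and the Rbfox2 call was lost (-0.15). In fits that left out a library the Elavl4 call was lost in 3, and those for Elavl2 and Rbfox2 in 1 each.

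The other 46 RNA-binding protein genes of a fixed list were called in both directions. Over all genes, 58.2% were called in either direction in PN-like differentiated, 32.6% in PN-like newborn and 48.3% in Hox-negative differentiated neurons. The shares were 41.8% in Hox-negative newborn neurons, 41.1% in Hox-negative progenitors, 44% in other Hox-positive differentiated neurons and 11% in glia-like cells. The counts of this list are to be read beside these shares. In PN-like differentiated neurons 15 of 42 measured rose and 10 fell from E14.5 to E18.5, with a median log2 change of 0.17 beside 0.024 over all genes tested. The largest rises were in Rbm24 (2.72), Khdrbs2 (1.65) and Cpeb4 (0.95). The largest falls were in Igf2bp2 (-2.22), Rbm38 (-1.64) and Igf2bp1 (-1.28), of which the Igf2bp genes encode binders of growth-related messages in immature cells. In PN-like newborn neurons 13 of 42 rose and 8 fell, led by Rbm24 (2.22), Celf5 (1.07) and Pum2 (0.74) and by Lin28b (-3.75), Igf2bp2 (-1.66) and Igf2bp1 (-1.52). In Hox-negative differentiated neurons 12 of 41 rose and 8 fell, with Mbnl2 (3.81), Pcbp3 (1.97) and Celf2 (1.93) the largest rises and Khdrbs2 (-2.54), Khdrbs3 (-2.50) and Igf2bp2 (-1.95) the largest falls. The remaining classes had 14 of 41 higher and 7 lower (Hox-negative newborn), 8 of 42 higher and 10 lower (Hox-negative progenitors), 9 of 42 higher and 10 lower (other Hox-positive differentiated) and 2 of 39 higher and 4 lower (glia-like).

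From E18.5 to P5, PN-like differentiated neurons of controls had 4 of 9 genes called, where 64% of 10998 genes were. Elavl3 was at 783, 788 and 786 CPM at E18.5 and at 519 and 473 CPM at P5, without overlap (log2 -0.58, SE 0.086, adjusted p = 0.000141 by edgeR). Nova2 fell from 181, 172 and 161 to 100.3 and 94.5 CPM (-0.73, SE 0.083), and Rbfox2 from 406, 387 and 395 to 278 and 269.6 CPM (-0.45, SE 0.084). Rbfox3 rose from 145, 159 and 151 to 194 and 170.1 CPM (0.35, SE 0.09). Celf4, Nova1, Rbfox1, Elavl2 and Elavl4 were not called. Among the other RNA-binding protein genes 6 of 41 rose, led by Cpeb1 (1.68), Pcbp3 (1.46) and Mbnl2 (1.22), and 24 fell, led by Igf2bp1 (-3.80), Rbm24 (-1.82) and Khdrbs2 (-1.51). P5 differed from E18.5 also in dissected tissue, in pooling and in depth, which cannot be told apart from age. The median was 29052 UMIs per cell of the class at P5. At E18.5 it was 17988, over control and mutant cells together.

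The 7 PN-like clusters of P5 differed 1.49-fold (Rbfox2) to 2.58-fold (Rbfox1) between the highest and the lowest, clusters picked for each gene by these levels. Rbfox1 was at 178 CPM (168 and 194 by library) in the cluster led by Rprml, Dmkn and Nefm and at 68.9 CPM (64.5 to 76.5) in the cluster led by Tcerg1l and Pcp4. The Rprml cluster was at the same time the lowest for Nova1, 34.6 CPM, and for Celf4, 544 CPM. Both of these were highest in the cluster led by Gstm1, Cdkn1c and Prox1, at 86.1 and 1001 CPM. A cluster led by Fxyd7 and Sncb was lowest for the other 6 genes and also had the fewest UMIs, a median of 10210 per cell. The part of depth in its levels was not tested.

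The third question was whether Atoh1S193A/- cells differed from control cells. Without pairing of littermates, edgeR called none of the 9 genes in all sorted cells at E14.5, where it called 1 of 10240 genes (0.00977%), or at E18.5, where it called 0 of 9883 genes (0%). At an unadjusted p under 0.05 these numbers were 2 of 9 beside 1215 genes at E14.5 and 0 of 9 beside 115 genes at E18.5. DESeq2 called Rbfox3 at E14.5 (log2 -0.33, adjusted p = 0.00300), where it called 2.43% of genes. At E18.5 it called 0 of 9, beside 13 of 9883 genes. In 20 fits within classes 0 of 175 values were called by edgeR, beside 0.0315% of the values of all genes, and 0 by DESeq2, beside 0.144%. By edgeR 15 were at an unadjusted p under 0.05 (8.57%, beside 3.42% of all genes), and the smallest adjusted p was 0.301. At E14.5 all 9 genes had lower values in the mutant in 3 of 3 littermate pairs, as had 24.2% of the 10240 genes tested. Rbfox3 was at 50.4, 50.2 and 49.6 CPM in controls and 41.7, 41.1 and 39.6 CPM in mutants, and Elavl2 at 367, 416 and 393 against 304, 351 and 302 CPM. Neither gene overlapped between genotypes, as was so for 6.46% of all genes with the mutant lower. Elavl3, at 463, 621 and 499.6 against 366, 517 and 382 CPM, overlapped because pair 2 was higher than the others in both genotypes.

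Littermates with the same number deviated together in all 6 pairs. With the pair as a block, 6 of 9 genes were called lower in E14.5 mutants in all sorted cells, where 17.6% of genes were called in either direction and 7.25% lower. By edgeR with adjustment over all genes, the changes were -0.36 for Elavl3 (SE 0.052, adjusted p = 0.00812), -0.33 for Elavl2 (SE 0.056, adjusted p = 0.0122), -0.27 for Elavl4 (SE 0.063, adjusted p = 0.0275), -0.39 for Rbfox1 (SE 0.050, adjusted p = 0.00646), -0.29 for Rbfox2 (SE 0.052, adjusted p = 0.0138) and -0.32 for Rbfox3 (SE 0.046, adjusted p = 0.00811). Nova2 and Nova1 had adjusted p of 0.0138 and 0.0199 with changes of -0.24 and -0.22, short of the fold limit, and Celf4 (-0.19) had an adjusted p of 0.0600. These calls depended on pair 3: without it 1 of 9 was called, beside 4.81% of all genes, and 7 without pair 1 or without pair 2, beside 15.7% and 15.6%. The file headers name Cell Ranger 3.1.0 for E14.5 control libraries 1 and 2 and 5.0.1 for all other libraries. In pairs 1 and 2 this version and the genotype thus cannot be told apart. The study lists the control of pair 1 as female and its mutant as male, so sex and genotype cannot be told apart there. In pairs 2 and 3 both embryos were of the same sex. In pair 3, where both libraries name 5.0.1, the log2 ratios of the 9 genes lay between -0.41 and -0.25. Without control libraries 1 and 2, which leaves 1 control against 3 mutants and takes the spread from the mutants alone, the unpaired edgeR values lay between -0.38 and -0.084.

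**Figure D4:**
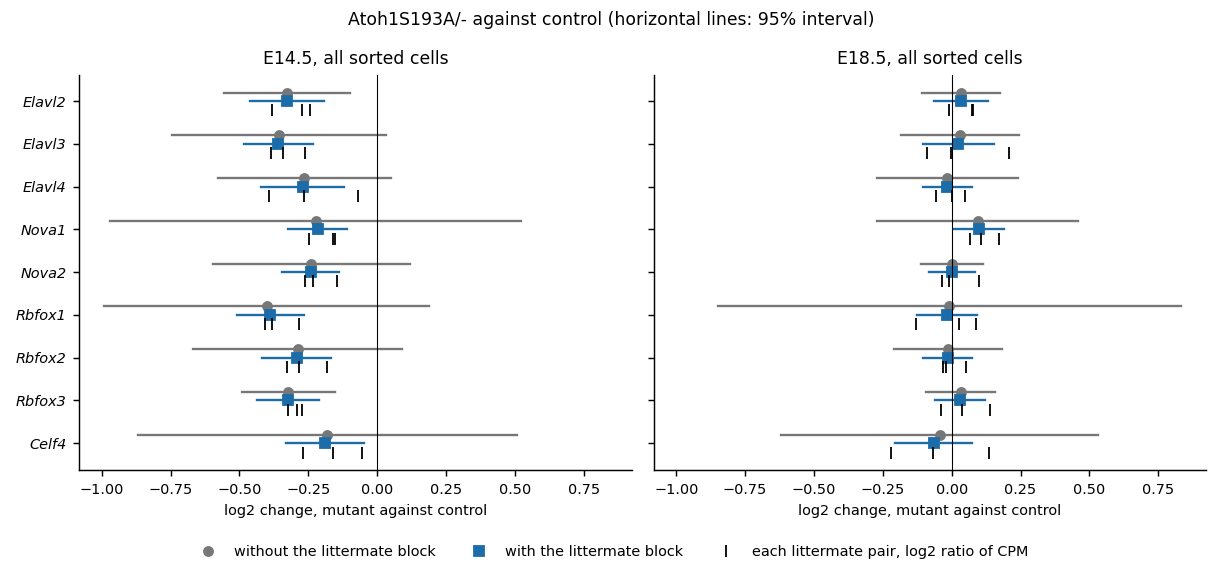
Log2 difference of Atoh1S193A/- from control cells, with 95% intervals, for the 9 genes in all sorted cells at E14.5 (left) and E18.5 (right), by edgeR without the littermate block (grey circles) and with it (blue squares), and black ticks for the log2 CPM ratio of each of the 3 pairs. At E14.5 all 9 genes lie below 0 in every pair, and at E18.5 the blocked values lie between -0.066 (Celf4) and 0.098 (Nova1).

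The make-up of the sorted cells moved with this result. Progenitor and intermediate classes were 13.6% ± 5.44 (SD, n = 3) of control and 21.8% ± 8.56 of mutant cells at E14.5, and differentiated classes 45.2% ± 11.2 and 36.1% ± 13.7. PN-like progenitors alone were 1.29% to 2.09% of control and 4.50% to 7.79% of mutant cells. Unnamed clusters, which are in neither set of classes, were 15.0% ± 5.15 of control and 20.5% ± 4.49 of mutant cells. Their share was higher in the mutant of each pair. In the same paired fit 8 of 9 progenitor markers were called higher and 7 of 8 differentiated neuron markers lower, with medians of 0.71 and -0.39. The part of these shares in the lower values was not tested. An unnamed cluster led by Ttr, in which these genes were low (Elavl3 at 25.7, 12.3 and 7.66 CPM in mutants), was 0.647%, 0.740% and 0.959% of control and 1.01%, 2.20% and 5.54% of mutant cells. Without its cells the paired values lay between -0.35 and -0.16 and 5 of 9 genes were called, beside 15.9% of all genes. Elavl4, at -0.24, then missed the fold limit. Without pairing 0 of 9 and 0% of genes were called by edgeR in these cells, and 2 of 9 and 1052 of 10180 genes were at an unadjusted p under 0.05. In the paired fit of all sorted cells, 7 of 42 other RNA-binding protein genes were called higher and 5 lower. The share of all genes called in either direction was 17.6%. Those higher were led by Ptbp1 (0.48), Rbm24 (0.46) and Qk (0.43), of which Ptbp1 represses neuronal exons in progenitors. Those lower were Srrm3 (-0.33), Celf5 (-0.32), Celf3 (-0.31), Celf6 (-0.27) and Khdrbs2 (-0.26). The unpaired edgeR fit of all sorted cells called 0 of the 42.

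Within PN-like states of E14.5, calls in the paired fits were found in 2 classes. In intermediate cells Elavl3 was at 574, 562 and 558 CPM in controls and at 389.7, 498 and 430.3 CPM in mutants, without overlap (log2 -0.39, SE 0.081, adjusted p = 0.00912 by edgeR). Rbfox2 was at 306, 301 and 316 against 242, 242 and 257 CPM, again without overlap (-0.33, SE 0.075, adjusted p = 0.0156). Rbfox1 was at 11.8, 5.89 and 12.3 against 4.04, 1.80 and 5.87 CPM, lower in each pair (-1.34, SE 0.23, adjusted p = 0.00258), on 14 to 57 UMIs per control and 5 to 39 per mutant library. It passed the filter on low values only through the controls (a UMI in 12.1% of their cells and 6.40% of mutant cells), so a called difference had to be lower in mutants. The background in this class was 4.01% of 9235 genes.

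In PN-like progenitors, where 0.884% of 10073 genes were called in the paired fit, Elavl3 was at 32.7, 83.6 and 45.4 CPM in controls and 20.9, 56.9 and 22.4 CPM in mutants (-0.76, SE 0.13, adjusted p = 0.00713 by edgeR). The groups overlapped, and each mutant was below its littermate. Rbfox3 was at 9.25, 10.6 and 18.4 against 3.78, 6.59 and 6.54 CPM (-1.20, SE 0.26, adjusted p = 0.0360 by edgeR), without overlap, on 13 to 30 and 28 to 74 UMIs. Rbfox3 likewise passed the filter only through the controls, with a UMI in 16.8% of their cells and 7.73% of mutant cells. Celf4, at 17.1, 31.3 and 39.9 against 31.4, 31.0 and 30.6 CPM, was not called. The 5 calls within classes include Rbfox1 in intermediate cells and Rbfox3 in progenitors, whose direction the filter fixed. Without pair 3 the 5 calls became 2, beside 0.454% of the values of all genes. Without pair 1 or pair 2 they became 7 each, beside 0.884% and 1.33%.

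Markers of state moved inside both classes too. In mutant intermediate cells the paired fit called 2 of 7 progenitor markers higher, Hes5 (1.05) and Ccnd1 (1.43), and 3 of 6 intermediate markers, Dll1 (1.35), Gadd45g (0.72) and Hes6 (0.34). It called 2 of 5 newborn markers lower, Nhlh1 (-0.93) and Nhlh2 (-0.53), and 2 of 7 differentiated markers, Nefl (-0.89) and Mapt (-0.75). In mutant progenitors it called 2 of 9 progenitor markers higher, Hes5 and Ccnd1, and 3 of 6 intermediate markers (Hes6, Insm1 and Mfng) and 1 of 3 newborn markers (Cntn2) lower. The part of these shifts within a class in the values of the 9 genes was not tested. In the paired fit of intermediate cells, 4 of 40 other RNA-binding protein genes were called lower and 1, Rbm24 (0.36), higher. The share of all genes called in either direction was 4.01%. Those lower were Celf5 (-0.77), Srrm3 (-0.63), Celf3 (-0.61) and Khdrbs2 (-0.58). In progenitors the paired fit called 1 of 39 lower, Srrm4 (-1.14), a regulator of neuronal microexons, beside 0.884% of all genes. Without pairing edgeR called 0 of them in either class.

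PN-like newborn neurons had 0 of 9 calls by edgeR at E14.5, paired or not, where the paired fit called 0.0104% of genes. Mutant library 2 held 0 cells of the single cluster named PN-like differentiated at E14.5, and its littermate control held 33 (0.520%). Controls 1 and 3 held 7.14% and 9.32%. Libraries were not aligned before clustering, so the 0 does not show that this embryo lacked such neurons. In a fit of the 3 controls against the other 2 mutants 0 of 9864 genes were called by edgeR, 306 of them and 1 of the 9 at an unadjusted p under 0.05, Rbfox3 at -0.38 (95% interval -0.75 to -0.0047), beside -0.097 for Elavl3 and 0.064 for Celf4. Without pair 2 these 2 values were -0.022 and 0.24, and again no gene was called. At E18.5 the same class had all 9 log2 differences between -0.14 and 0.039, such as 0.013 for Elavl3 (95% interval -0.14 to 0.16) and -0.14 for Rbfox3 (-0.27 to -0.0046). In all sorted cells of E18.5 the 9 values without pairing lay between -0.044 and 0.095, and 0.253% of genes and 0 of these 9 were called in the paired fit. The difference between ages was tested directly. Without pairing 0 of 53 values were called by edgeR (0% of those of all genes). At an unadjusted p under 0.05 there were 6, and the share of all genes at that limit is not given. DESeq2 called 2 in all sorted cells, Elavl2 and Rbfox3, where it called 0.674% of genes. With pairing 8 of 9 genes were called with a less negative mutant effect at E18.5 than at E14.5 in all sorted cells, and Celf4, with a difference of 0.13, was not called. The fit with all pairs called 5.94% of 10533 genes in this direction. Without E14.5 pair 3 the 8 calls became 3, beside 1.65% of all genes. The shares of progenitor and intermediate classes were 41.3% in controls and 40.4% in mutants at E18.5. These cells were all Hox-negative progenitors, so the shares cover fewer classes than those at E14.5. No cluster of E18.5 met the limits for PN-like progenitors, which gives 0% in both genotypes by these names. The study, with its own clustering, did find progenitors among PN cells of E18.5, at a slightly larger share in mutants.

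At P5 Elavl3 was measured outside neurons as well. Oligodendrocyte lineage-like cells were 10.4% and 5.40% of the cells kept, and microglia-like cells 5.86% and 6.23%. Whether these cells belong to the Atoh1 lineage was not tested. Oligodendrocyte lineage-like cells held 610.2 and 632 CPM of Elavl3, next to 519 and 473 CPM in PN-like neurons, while glia-like cells held 42.7 and 21.0 CPM. As a mean of CPM over cells, in which each cell counts alike, the order was the reverse, with 416 and 439.6 against 508 and 446 CPM. The other 2 Hu genes were low in the oligodendrocyte lineage-like cells, Elavl2 at 60.1 and 47.6 CPM and Elavl4 at 50.5 and 33.6 CPM. The level differed between clusters. In the cluster with Pdgfra and Cspg4, marks of precursors, it was 154 and 122 CPM. In the cluster with Enpp6 and Gpr17, marks of newly formed oligodendrocytes, it was 462 and 419.9 CPM. In the cluster with Mag and Cldn11, genes of myelinating cells, it was 1280.2 and 1139 CPM, with an Elavl3 UMI in 100% of cells at median depths of 27303 and 31401 UMIs. A further cluster, left unnamed for its low depth (medians of 2636 and 3150 UMIs), was led by the myelin genes Mobp and Mbp and had more Mbp than the Mag cluster, 46780 and 47374 against 16806 and 19003 CPM. Its Elavl3 level, 329 and 354 CPM with a UMI in 57.6% and 63.8% of cells, was below those of the Mag and Gpr17 clusters. The larger of the 2 microglia-like clusters had an Elavl3 UMI in 31.3% and 13.1% of cells at median depths of 10438 and 10759.5 UMIs, and the smaller in 36.4% and 16.1% at 9089 and 9655 UMIs.

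Snap25, a synaptic gene of neurons, was at 121 and 84.5 CPM in the Pdgfra cluster, 41.7 and 24.5 CPM in the Gpr17 cluster, 26.4 and 16.6 CPM in the Mag cluster and 115 and 76.5 CPM in the unnamed one. The part of free RNA in these levels was not tested. In the Mag cluster Elavl2 was at 32.1 and 38.6 CPM and Elavl4 at 15.9 and 13.2 CPM. Nova1, in contrast, was highest in the Pdgfra cluster, at 141 and 143 CPM, and at 15.4 and 14.2 CPM in the Mag cluster.

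**Figure D5:**
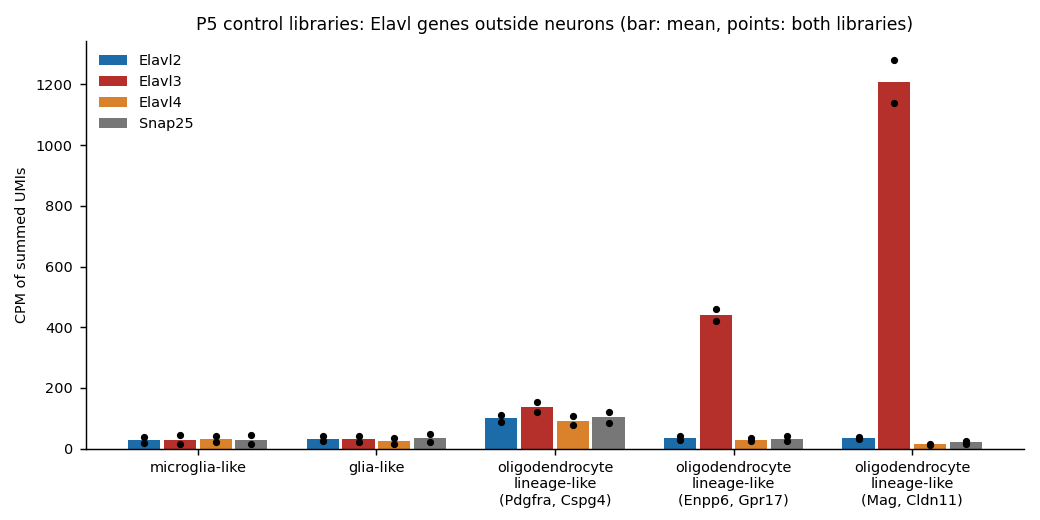
Level of Elavl2, Elavl3, Elavl4 and Snap25 (CPM, linear axis from 0) in 1 microglia-like, 1 glia-like and 3 oligodendrocyte lineage-like clusters at P5, with bars for the mean and points for the 2 libraries. Elavl3 climbs from 154 and 122 CPM in the Pdgfra cluster to 1280.2 and 1139 CPM in the Mag cluster, while the other 3 genes are lower in the Mag cluster than in the Pdgfra cluster.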

How the data were processed

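The files held UMI counts per gene and barcode, which the authors deposited after alignment to mm10 with an added WPRE sequence. The methods name Cell Ranger 5.0.1, and the headers of E14.5 control libraries 1 and 2 name 3.1.0. Their 7972 and 10407 barcodes also differ from the cell numbers that the study lists, while those of all other libraries match. Cells with at least 1000 genes and under 5% mitochondrial UMIs were kept, and the 7.5% with the highest Scrublet scores were removed in each library. Cells were clustered per age with scanpy 1.11.5 (2000 variable genes, 30 components, 15 neighbours, resolution 1) without the 9 genes and the 46 other RNA-binding protein genes. Libraries were pooled for this without integration, whereas the study integrated its samples. Clusters were named from marker lists, with limits set after the cluster means were seen, and 15 of 86 clusters stayed unnamed. Counts were summed per library and class, and genes seen in 10% or more of the cells of either group were tested in edgeR 4.0.16 (TMM scaling, quasi-likelihood, R 4.3.3), with DESeq2 1.42.0 as an alternative. Each embryo is a replicate, and the P5 libraries are pools. The methods pair each mutant with a littermate, and same-numbered libraries deviated together (r 0.68 to 0.89 over genes), so the numbers pair the samples. The tests were run on simulated counts with known changes. These counts held no littermate effect and no shift in make-up, so they cannot judge the choice between paired and unpaired fits. The genes, lists and tests were chosen with earlier results of these data known. The text names all 9 genes, the 3 largest rises and falls of the other list and the genes of most similar pattern. Intervals and SEs come from the fits over libraries, and shares of cells with a UMI carry no interval. No promoter was found for Rbfox2 and Celf4, and the position of Celf4 is not reported here.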

Additional observations from a re-analysis of the deposited data

Results flagged for a closer look

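At P5 Elavl3 was measured in oligodendrocyte lineage-like cells, which no comparison between groups used, at a lowest library level of 610.2 CPM, above the 45.9 CPM of the highest microglia-like library taken as the background. For 8 genes the difference of the Atoh1S193A/- effect between E18.5 and E14.5 in all sorted cells passed the test with littermate pairs: 0.37 for Elavl2, 0.39 for Elavl3, 0.27 for Elavl4, 0.33 for Nova1, 0.25 for Nova2, 0.38 for Rbfox1, 0.29 for Rbfox2 and 0.37 for Rbfox3, all on the log2 scale. The same fit called 5.94% of all genes in this direction. Without E14.5 pair 3 these 8 calls became 3, beside 1.65% of all genes. None passed without pairs by edgeR, and the make-up of the sorted cells differed between genotypes at E14.5. Its part was not tested.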

How the results depend on the processing

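The number of the 9 genes called in E14.5 mutants in all sorted cells was 0 without pairing, 6 with the replicate block and 1 by DESeq2, and with the block it was 7, 7 and 1 without pair 1, 2 or 3, settings chosen after seeing the data. In a further such setting, without the Ttr-high cells, it was 5 with the block and 0 without. For the difference between ages these numbers were 0, 8 and 2, and 7, 8 and 3 without a pair. The shares of all genes called moved with these settings. At E14.5 they were 0.00977% without pairing, 17.6% with the block and 2.43% by DESeq2. Without pair 1, 2 or 3 they were 15.7%, 15.6% and 4.81%. For the difference between ages they were 0%, 5.94% (less negative effects only) and 0.674%, and 1.65% without pair 3. Shares without pair 1 or pair 2 are not given there, so those 7 and 8 calls have no background. Within classes the numbers of calls were 0 without pairing, 5 with the block, and 7, 7 and 2 without a pair. With no filter on low values and no pairing the number was 1. This was Rbfox1 in PN-like intermediate cells of E14.5 (log2 -1.27, adjusted p = 0.00552 by edgeR). In that fit 260 of 18390 genes were called. The 5 calls with the block include Rbfox1 in PN-like intermediate cells and Rbfox3 in PN-like progenitors. Where the filter on low values was used, both passed it only through the controls, which fixed their direction in those fits. The block changed the number of genes called at E14.5 from 1 to 1802 of 10240 and left the E18.5 member count at 0. Without any single library, 23 to 35 calls were found between E14.5 and E18.5, 4 to 5 between E18.5 and P5, and 0 to 0 in each unpaired comparison of genotypes. With all libraries the calls between ages were 33, beside 39.7% of the values of all genes, and 4, beside 64% of genes. Shares of all genes without a library are not given. When doublets were kept, 5 values turned sign: in glia-like cells Elavl2 to 0.60, Elavl4 to 0.60 and Elavl3 to 0.97, in Hox-negative newborn neurons Elavl2 to -0.17, and in PN-like newborn neurons Elavl4 to 0.079. The cause was not tested. Of the other log2 values for single genes under an alternative, 612 kept their side of the threshold, 59 fell below it and 22 passed it. Levels below about 20 CPM, such as Rbfox1 in progenitors, and levels in classes of few cells, such as Nova1 in glia-like cells, rest on few UMIs.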

Other observations

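In glia-like cells at E18.5, Nova1 was at 31.9, 42.4 and 39.0 CPM in controls, on 9, 15 and 39 UMIs in 28, 32 and 81 cells, while the other 8 genes were lowest in this class. Hox-negative progenitors held 29.1, 24.8 and 28.6 CPM of Nova1 and unipolar brush cell-like cells 34.2, 28.1 and 29.1 CPM, and at this depth no order between the 3 classes can be read.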
